A study of Arabidopsis thaliana with 8 samples.

Results

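The comparison described here is the effect of imbibition temperature on the transcripts of Arabidopsis thaliana seeds, with the study's genotypes pooled. All 8 of the 8 arrays of the series entered it, 4 of seeds imbibed at 4 °C and 4 of seeds imbibed at 22 °C, each for 24 h. The groups were 35S-GSH1 seeds at 4 °C, Col-0 seeds at 4 °C, 35S-GSH1 seeds at 22 °C and Col-0 seeds at 22 °C, with 2 arrays each, in the Columbia background. The wild type is Col-0. The name 35S-GSH1 stands for GSH1, the gene of glutamate-cysteine ligase, the first enzyme of glutathione synthesis, under the viral 35S promoter, which is active in most plant tissues. The level of GSH1 itself was not analysed here, because no probe set was paired with it. The labels call the seeds at 4 °C vernalized. The labels do not state whether replicates were separate seed lots. The p-values therefore reflect only scatter among these arrays, estimated in part across probe sets, and that scatter may be technical.

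A dry seed holds stored transcripts and proteins, and water uptake restarts respiration, translation and transcription before the root emerges. Moist chilling of imbibed seeds, known as stratification, is used to break dormancy and to make germination even. In growing Arabidopsis plants, cold is known to act through calcium signals, transcription factors and the circadian clock on cold-regulated genes. Seeds at a lower temperature also progress more slowly, so temperature and the stage reached after 24 h cannot be told apart here. In whole seeds, fewer cells of a type and less RNA per cell cannot be told apart either.

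The values are probe-set intensities of single-colour arrays, analysed as log2(intensity + 1) after quantile normalization, and every difference is 4 °C minus 22 °C on that scale. Of 22746 probe sets, 13648 with a mean log2 value of at least 2.86 were tested with limma, with temperature, genotype and replicate number as terms. A probe set was called at a Benjamini-Hochberg adjusted p under 0.05 over all 13648. The median deposited intensity of an array ranged from 13.2 to 16.2 at 4 °C and from 12.3 to 14.2 at 22 °C. Pearson correlations over the tested probe sets were 0.961 to 0.98 between arrays of one temperature and 0.94 to 0.959 between temperatures. Few tissue markers were named on the table. The oil-body gene OLEO3 lay at 9.33 to 9.61 at 4 °C and 8.9 to 9.4 at 22 °C. The endosperm gene ALN lay at 4.58 to 4.81 at 4 °C and 3.97 to 4.43 at 22 °C, without overlap, but did not pass the test described above (adjusted p = 0.0974). BAN, of the seed coat, did not exceed 3.03 on any array. Named leaf genes were RCA, PSAN and LHCB4.1, which is described below. RCA lay at 4.66 to 5.1 at 4 °C and 4.36 to 5.22 at 22 °C. PSAN was dim, at 2.38 to 3.12 at 4 °C and 0.89 to 2.99 at 22 °C. Both overlapped between temperatures, unlike LHCB4.1. The part of tissue make-up in the results was not tested. The root genes PYK10 and EXPA7 did not exceed 3.95 on any array, and no pollen marker of the list was named.

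Imbibition at 4 °C changed 3012 of the 13648 probe sets, which is 22.1%, with 1580 higher (11.6%) and 1432 lower (10.5%). The median size of these differences was 0.596, a 1.511-fold change. A change of at least 2-fold was found for 461 probe sets (3.38%), of which 226 were higher (1.66%) and 235 lower (1.72%) at 4 °C. Changes under 1.5-fold made up 1461 calls, 48.5% of all of them, and changes between 1.5-fold and 2-fold another 1090, or 36.2%. Probe sets with no single gene paired to them were called in 1464 of 6030 cases (24.3%), named genes in 1528 of 7530 (20.3%), and the 1006 named genes with a symbol in 213 cases (21.2%), 121 higher (12%) and 92 lower (9.15%). The split between higher and lower depended on scaling. On the deposited scale without quantile normalization the median of all probe sets shifted by 0.11, and 68.7% of 3292 calls were higher at 4 °C, against 52.5% in the quantile-normalized values. Directions below are therefore relative to the other transcripts on the arrays, and no gene named below changed sign on that scale.

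Temperature had the most calls of the terms in the fit. The genotype term, 35S-GSH1 over Col-0, reached 13 probe sets (0.0953%), 1 higher and 12 lower, and the replicate term reached 99 (0.725%). No probe set passed limma's test of the interaction, that is, of a different temperature effect in 35S-GSH1 and in Col-0 (0%), while 453 (3.32%) had an unadjusted p under 0.05. The interaction was also the least precise quantity. Its median 95% half-width was 0.741 on the log2 scale, against 0.524 for the temperature difference within 1 genotype and 0.333 for the pooled difference. A pooled call therefore does not show that the effect was equal in both genotypes.

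**Figure D1:**
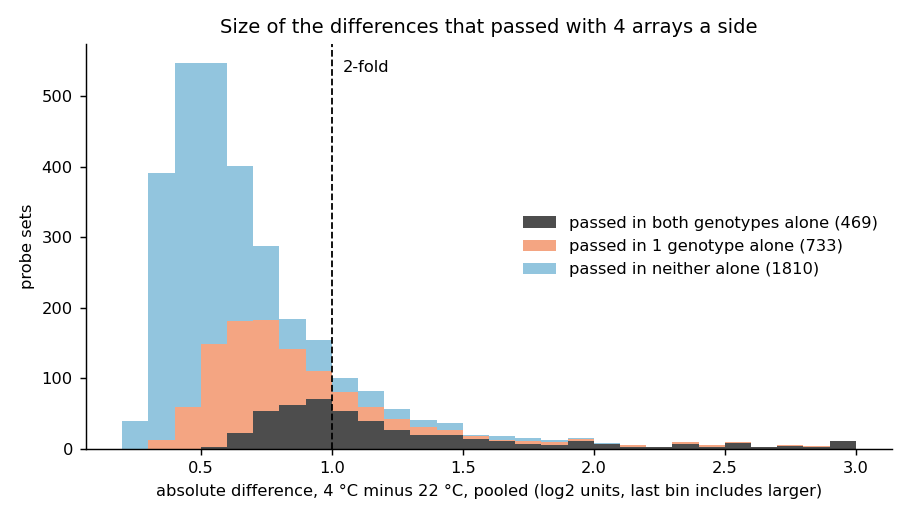
Number of probe sets (vertical axis) by absolute pooled difference between 4 °C and 22 °C in log2 units (horizontal axis), for the 3012 probe sets that passed. Colours show whether the probe set also passed in both genotypes alone (469), in 1 genotype alone (733) or in neither (1810), in fits without a replicate term, and the dashed line marks 2-fold. The probe sets that passed in neither genotype alone lie mostly left of the line.

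The question put to the pooled comparison was which moderate changes are missed with 2 arrays against 2. In single-genotype comparisons without a replicate term, 762 probe sets passed in 35S-GSH1 (5.58%) and 953 in Col-0 (6.98%). These comparisons use the same arrays as the pooled one, so the counts that follow describe the fits and are not independent of each other. Of the 3012 pooled calls, 469 passed in both genotypes alone and 733 in 1 of them. The other 1810 passed in neither, and 1714 of those were under 2-fold, here called moderate (12.6% of the probe sets tested). Of the moderate changes, 902 were higher (6.61%) and 812 lower (5.95%) at 4 °C, and their median size was 0.49, a 1.404-fold change. In 1625 of the 1714, the 4 pairs of arrays matched by genotype and replicate number all moved one way, which over all probe sets held for 38.6%. In 1098 the 4 arrays at 4 °C did not overlap the 4 at 22 °C, against 20.8% of all probe sets, of which 10.4% had all 4 °C arrays above and 10.3% all of them below. The moderate changes were selected on a temperature difference in these same arrays. That choice raises both counts, so they are no separate support for the calls. The median absolute difference was 0.487 within 35S-GSH1 and 0.496 within Col-0.

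This count depended on the replicate term. The pooled fit held that term and the single-genotype comparisons did not. With the term in both, 1386 probe sets passed in 35S-GSH1 and 1692 in Col-0, and 968 of the 1714 moderate changes still passed in neither, while 603 passed in 1 genotype and 143 in both. With the term in neither fit, 2364 probe sets passed pooled and 1111 of them were moderate. No label says what a replicate number stands for. In every group the median deposited intensity was higher for replicate 1. At 4 °C it was 16.1 and 16.2 for replicate 1 and 13.3 and 13.2 for replicate 2, in 35S-GSH1 and Col-0. At 22 °C it was 14 and 14.2 for replicate 1 and 12.3 and 13.5 for replicate 2. The part of replicate number in the calls was not tested.

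**Figure D2:**
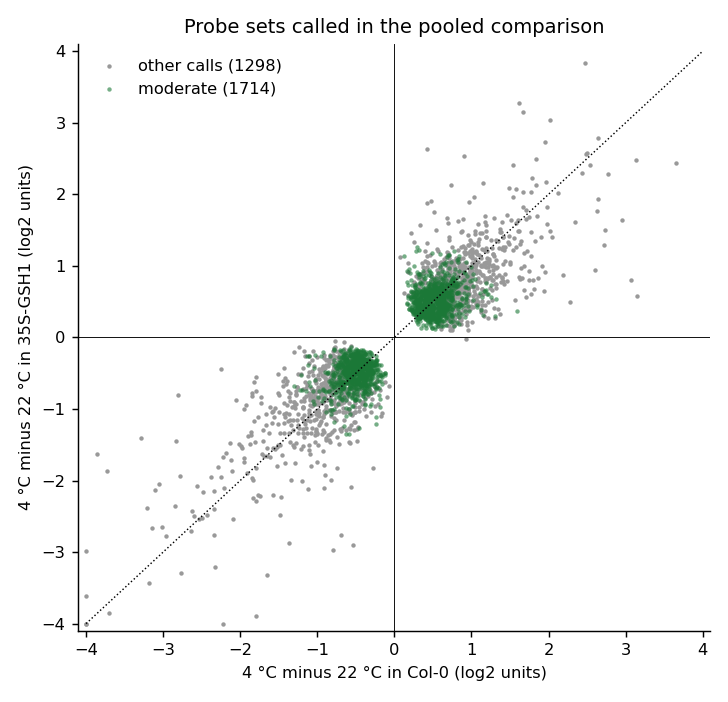
Temperature difference in 35S-GSH1 (vertical axis) against that in Col-0 (horizontal axis), both 4 °C minus 22 °C in log2 units, for the 3012 pooled calls, with the 1714 moderate ones in green. Values beyond 4 are drawn at the edge and the dotted line marks equality. The moderate changes lie in 1 cloud on each side of 0, nearer to 0 than the largest of the other calls, as their limit of 2-fold sets.

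The reach of the comparison depended on signal. Among the 3412 dimmest probe sets tested, 5.95% were called and the median 95% half-width was 0.771, while among the 3412 brightest 36.9% were called and it was 0.235. Of the moderate changes, 42 lay among those dimmest probe sets, 366 and 587 in the 2 classes of equal size between, and 719 among the brightest. In contrast, the 96 probe sets of at least 2-fold that passed only pooled were dim, with a median level of 3.67. Another 44 probe sets passed in a genotype alone and not pooled, 13 in 35S-GSH1 and 31 in Col-0. Of these, 42 had an unadjusted interaction p under 0.05 in limma, and none passed after adjustment. Passing in a genotype alone but not pooled favours unequal differences in these same arrays. That count is therefore no separate support for an effect that depends on genotype.

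The named moderate changes higher at 4 °C included glycosyltransferases, enzymes that add sugars to small molecules. UGT78D2, which adds glucose to flavonoids at position O-3, read 8.67 and 8.92 in 35S-GSH1 and 8.55 and 8.68 in Col-0 at 4 °C, against 8.2 and 8.27 in 35S-GSH1 and 8 and 8.2 in Col-0 at 22 °C. All 4 arrays at 4 °C lay above all 4 at 22 °C. The difference was 0.54 ± 0.1 (SE, n = 4 arrays a side), or 1.45-fold, with a limma adjusted p of 0.000815. Every SE given is limma's, which combines the probe set's own spread with that of probe sets of like intensity. The pooled fit had 4 residual and 12.54 prior degrees of freedom. UGT80B1, a sterol glucosyltransferase known from seed-coat mutants, read 6.17, 6.43, 5.94 and 6.58 at 4 °C, against 5.35, 5.72, 5.53 and 5.89 at 22 °C, in the order of 35S-GSH1 and then Col-0 that is used below for every gene. Its arrays did not overlap either, though the lowest at 4 °C was only just above the highest at 22 °C, and the change was 0.66 ± 0.14 with an adjusted p of 0.00221. UGT85A5, another family 1 glycosyltransferase, rose by 0.48 ± 0.12 (limma adjusted p = 0.00726). It was the only 1 of the 24 moderate genes named here that passed in neither genotype once both fits held the replicate term.

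MGL, methionine gamma-lyase, which breaks methionine down, read 9.42, 9.29, 9.63 and 9.25 at 4 °C, against 8.99, 8.46, 8.72 and 8.89 at 22 °C. The 2 groups did not overlap, and both genotypes moved by nearly the same amount, 0.63 in 35S-GSH1 and 0.64 in Col-0. The pooled change was 0.63 ± 0.11, or 1.55-fold, with a limma adjusted p of 0.000639. On their own these genotypes gave adjusted p-values of 0.0816 and 0.07, which became 0.0222 and 0.0176 with the replicate term. SAMTL, named as a transporter-like gene for S-adenosylmethionine, read 6.79, 6.87, 6.82 and 6.67 at 4 °C, against 6.04, 6.34, 6.15 and 6.03 at 22 °C, with a change of 0.65 ± 0.13 (adjusted p = 0.00153). Its 4 arrays at 4 °C were within a narrow band above the others. APM1, an aminopeptidase, was 1.47-fold higher (0.56 ± 0.11, limma adjusted p = 0.0017).

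LHCB4.1, an antenna protein of photosystem II, read 8.67, 8.54, 8.45 and 8.49 at 4 °C, against 8.06, 8.08, 7.82 and 8.07 at 22 °C. The arrays did not overlap, and 1 Col-0 array at 22 °C stood below the rest. It rose by 0.53 ± 0.1, or 1.44-fold (limma adjusted p = 0.00138). Of 14 nuclear photosynthesis genes tested it was the only one called, with a list median of 0.24, where the median of all 7530 named genes was 0 and 20.3% of them were called. COR27, a cold-regulated gene tied to the clock, read 8.34, 8.39, 8.06 and 8.34 at 4 °C, against 7.9, 7.93, 7.36 and 7.78 at 22 °C. Its groups did not overlap, with a change of 0.54 ± 0.11 (adjusted p = 0.00205).

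Named moderate genes of membrane traffic went both ways. PRA7 and PRA8, of the prenylated Rab acceptor family, rose by 0.49 ± 0.1 and by 0.49 ± 0.12 (limma adjusted p = 0.00184 and 0.00689). SEC5A, a subunit of the exocyst, which tethers secretory vesicles to the plasma membrane, read 7.69, 7.83, 7.51 and 7.39 at 4 °C, against 7.2, 7.1, 7.24 and 6.91 at 22 °C, a change of 0.49 ± 0.12 (adjusted p = 0.00633). All arrays at 4 °C were the higher ones. Another member of the Rab acceptor family, PRA1.B1, went the other way, reading 6.23, 6.21, 6.33 and 6.36 at 4 °C, against 6.92, 6.8, 6.71 and 6.87 at 22 °C. It fell by 0.55 on the log2 scale, SE 0.12 (adjusted p = 0.00428), without overlap. By symbol, 2 of 9 SEC genes were higher and none lower, though the SEC median was -0.14. Of 9 VPS genes, 2, VPS60.1 and VPS60.2, were lower and none higher (median -0.28). The share called was 22.2% in each family, near the 20.3% of all named genes. Beside SEC5A, SEC15B was 0.36 higher (adjusted p = 0.0427), a call lost in 7 of the 8 fits that each left out 1 array. VPS60.1 fell by 0.37 and VPS60.2 fell by 0.36 (limma adjusted p = 0.0361 and 0.0447), calls lost in 6 and 7 of those fits. RL2, the gene at locus AT5G45160, completed the 12 named moderate increases at 0.61 ± 0.15 (adjusted p = 0.00689).

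**Figure D3:**
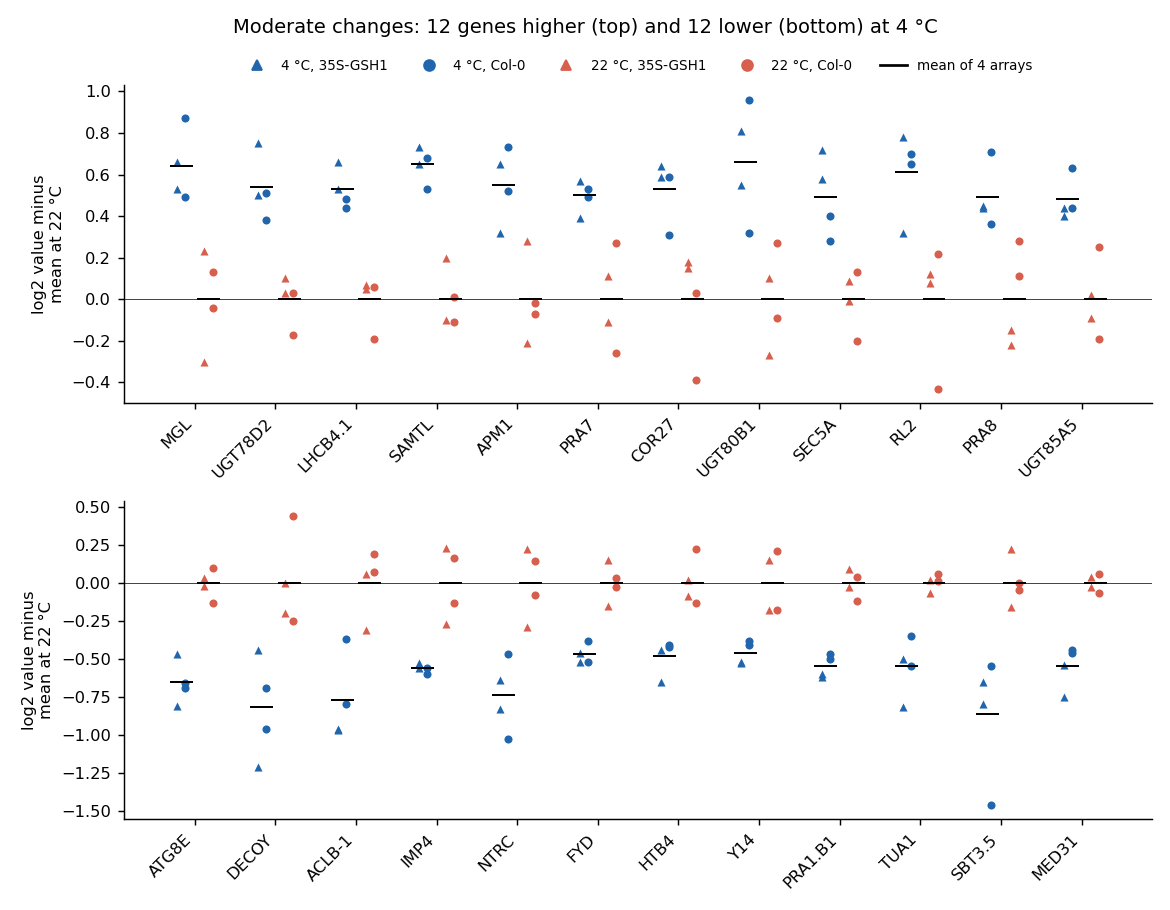
Log2 value of each array minus the gene's mean at 22 °C (vertical axis), for 12 moderate genes higher at 4 °C (top) and 12 lower (bottom), chosen as the smallest adjusted p-values among genes with a symbol and no overlap. Triangles are 35S-GSH1, circles Col-0, blue 4 °C, red 22 °C, and bars the means of 4 arrays. No gene's blue points overlap its red ones, because genes without overlap were selected.

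The named moderate decreases at 4 °C included genes of autophagy, acetyl-CoA supply and plastid redox balance. ATG8E, a ubiquitin-like protein of the autophagosome membrane, read 6.87, 6.53, 6.68 and 6.65 at 4 °C, against 7.32, 7.37, 7.44 and 7.21 at 22 °C. All 4 values at 4 °C were lower. It fell by 0.65, SE 0.12, which is 1.57-fold lower (limma adjusted p = 0.000768), and its single-genotype adjusted p-values were 0.0664 in 35S-GSH1 and 0.0531 in Col-0. ACLB-1, the B subunit of ATP-citrate lyase, which makes cytosolic acetyl-CoA, read 4.81, 4.8, 5.4 and 4.97 at 4 °C, against 5.83, 5.46, 5.96 and 5.84 at 22 °C. The highest array at 4 °C was just below the lowest at 22 °C, and the gene fell by 0.78, SE 0.15 (adjusted p = 0.00148). NTRC, a plastid NADPH-dependent thioredoxin reductase, read 4.86, 5.05, 4.66 and 5.22 at 4 °C, against 5.4, 5.91, 5.61 and 5.83 at 22 °C, and fell by 0.74, SE 0.15 (adjusted p = 0.0023).

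IMP4, a protein of the ribosomal RNA processing complex, read 7.56, 7.53, 7.53 and 7.49 at 4 °C, against 8.32, 7.82, 8.25 and 7.96 at 22 °C. The arrays at 4 °C were nearly equal, whereas those at 22 °C spread with replicate number, and IMP4 fell by 0.56, SE 0.11 (limma adjusted p = 0.00183). Y14, of the exon junction complex, fell by 0.46 (SE 0.1, adjusted p = 0.00395), MED31, a Mediator subunit, by 0.55 (SE 0.13, adjusted p = 0.00593), and HTB4, a histone H2B, by 0.49 (SE 0.11, adjusted p = 0.00337). Of 12 histone and chromatin genes, 2 were lower and 1 higher, the last being ATRX, a chromatin remodeller. ATRX read 5.87, 6.47, 5.85 and 6.11 at 4 °C, against 5.1, 5.26, 5.45 and 5.77 at 22 °C, and rose by 0.68 ± 0.16 (adjusted p = 0.0057) without overlap. TUA1, an alpha-tubulin, read 6.15, 5.83, 6.1 and 6.3 at 4 °C, against 6.58, 6.67, 6.66 and 6.71 at 22 °C. The 22 °C arrays were tight and all above, and TUA1 fell by 0.56, SE 0.13 (adjusted p = 0.00544). The other named decreases were DECOY, by 0.82 (adjusted p = 0.00144), FYD, by 0.47 (adjusted p = 0.00287), and the subtilase SBT3.5, by 0.87 (adjusted p = 0.00549). Of the 24 named moderate genes, 16 passed in 1 genotype and 7 in both when the single-genotype fit also held the replicate term.

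Named changes of at least 2-fold included STZ, a zinc-finger repressor induced by cold and salt, and clock genes. STZ read 11.48, 11.97, 11.8 and 12.37 at 4 °C, against 9.6, 9.81, 9.64 and 10.29 at 22 °C, a pooled change of 2.07 ± 0.09 (limma adjusted p = 1.38e-10). GI, GIGANTEA, a clock protein that also acts in flowering, read 6.74, 6.7, 7.36 and 7.06 at 4 °C, against 5.39, 5.61, 5.83 and 5.74 at 22 °C, or 1.32 ± 0.13 (adjusted p = 2.99e-06). TIC, which maintains clock amplitude, rose by 1.13 ± 0.14 (adjusted p = 1.93e-05). None of these overlapped between temperatures, and GI and TIC were the only 2 genes of the clock list that were tested. BZIP53, a bZIP factor of seed maturation genes, read 8.92, 8.52, 8.66 and 8.24 at 4 °C, against 7.72, 7.35, 7.6 and 7.39 at 22 °C. It was 2.1-fold higher (1.07 ± 0.11, adjusted p = 2.6e-06), with every 4 °C array above every 22 °C array.

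ARL, an ARGOS-like gene of organ growth, rose by 1.51 ± 0.16 (limma adjusted p = 6.45e-06), and COB, a cell-surface protein of oriented cell expansion, by 1.07 ± 0.14 (adjusted p = 4.44e-05). LBD16, a factor of lateral root formation, read 6.44, 6.56, 6.75 and 6.41 at 4 °C, against 7.63, 7.54, 7.68 and 7.82 at 22 °C. Its groups were tight and well apart, and it fell by 1.12, SE 0.12, or 2.18-fold (adjusted p = 5.64e-06). WRKY22, a WRKY factor of defence responses, read 6.77, 6.58, 6.7 and 6.65 at 4 °C, against 5.43, 5.13, 5.78 and 6.15 at 22 °C, and was 2.07-fold higher (adjusted p = 0.000203). Its difference was 1.4 in 35S-GSH1 and 0.71 in Col-0, and the interaction of 0.69 did not pass limma's test.

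UGT73B4, a family 1 glycosyltransferase, read 4.57, 3.69, 3.98 and 3.96 at 4 °C, against 5.58, 5.78, 5.84 and 6.05 at 22 °C, and fell by 1.76, SE 0.21 (limma adjusted p = 1.35e-05). GSTU22, a glutathione transferase of the tau class, fell by 1.12, SE 0.19 (adjusted p = 0.000386), the only call among 4 glutathione transferases tested. ATERDJ3B, a J-domain co-chaperone of the endoplasmic reticulum, fell by 1.1, SE 0.19 (adjusted p = 0.00043). None of these overlapped between temperatures. ZCF37 fell by 2.83, SE 0.31 (adjusted p = 7.18e-06), with arrays at 4 °C spread between 2.39 and 3.97. Only 5 genes with a symbol met the conditions for a named decrease of this size. Beside STZ, the probe sets with the smallest p-values in each direction had no symbol. Probe set 263096_at read 5.12, 4.79, 4.54 and 4.82 at 4 °C, against 10.43, 10.52, 10.24 and 9.81 at 22 °C, 43.1-fold lower (adjusted p = 4.48e-14). Probe sets 245951_at and 250580_at were 13.7-fold and 9.88-fold lower, while AT3G19680 was 5.77-fold and 257939_at 5.55-fold higher.

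**Figure D4:**
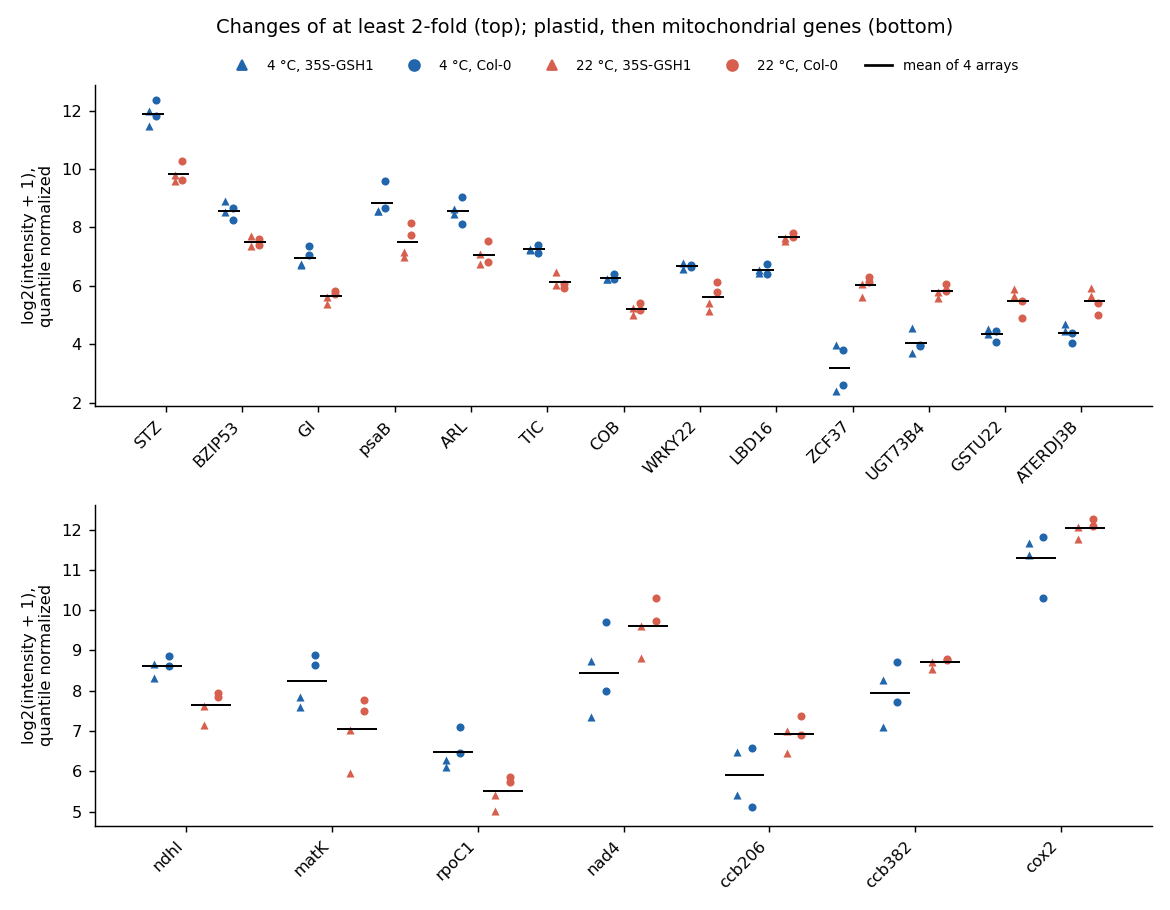
Log2(intensity + 1) after quantile normalization (vertical axis) on each array for 13 genes of at least 2-fold (top) and for plastid and mitochondrial genes (bottom). Triangles are 35S-GSH1, circles Col-0, blue 4 °C, red 22 °C, and bars the means of 4 arrays. The groups are apart for every gene on top by selection, while the mitochondrial genes nad4, ccb206, ccb382 and cox2 overlap.

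Gene groups were described by counts beside the 20.3% of named genes called, with 10.6% higher and 9.69% lower. Of 34 family 1 glycosyltransferases tested, 8 were higher and 1, UGT73B4, lower, with a median of 0.21. Beside those above, UGT76E12 read 10.5, 10.36, 10.5 and 10.41 at 4 °C, against 9.93, 9.81, 9.78 and 9.97 at 22 °C. Its groups were tight and apart, at 0.57 ± 0.09 (limma adjusted p = 0.000277). UGT72E1, which glucosylates lignin precursors, was 0.4 higher (adjusted p = 0.0113, but 0.0565 without Col-0 replicate 1 at 4 °C), and UGT76C1, which glucosylates cytokinins, 0.4 higher with overlapping arrays (adjusted p = 0.0347), a call lost in 5 of the 8 fits that each left out 1 array.

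Cell wall genes were called upward only. In wall loosening and remodelling 3 of 13 were called (23.1%, median 0.35), a share near the 20.3% of all named genes. Those 3 include COB, described above as a protein of oriented cell expansion. In wall polysaccharide synthesis 2 of 6 were called (median 0.06). EXLA1, an expansin-like protein, read 9.52, 8.8, 9.25 and 9.29 at 4 °C, against 8.02, 8.28, 8.19 and 8.6 at 22 °C, a change of 0.95 ± 0.14 (limma adjusted p = 0.000167). CSLC5, of the synthases of the xyloglucan backbone, was 1.93-fold higher (0.95 ± 0.15, adjusted p = 0.000313), and CSLD2, another cellulose synthase-like protein, 1.63-fold (0.71 ± 0.15, adjusted p = 0.00262). None of these 3 overlapped. The beta-expansin gene EXPB2 was also called (adjusted p = 0.0393), but 4 of the 6 fits without 1 array that tested it lost that call. Of 9 cytoskeleton genes, 2 alpha-tubulins fell and 2 beta-tubulins rose. TUA6 fell by 1.23 (SE 0.28, adjusted p = 0.00467), with overlapping arrays and a mean of 3.19 at 4 °C, near the filter level of 2.86. TUB7 and TUB9 were 0.52 and 0.36 higher (adjusted p = 0.0189 and 0.0405). The calls of TUB7 and TUB9 were lost in 4 and 6 of the 8 fits that each left out 1 array. Tubulins, ATG8 proteins and H2B histones have close paralogs, which a probe set may not separate.

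Respiration genes were called downward only, 4 of 12 with a median of -0.23. The list includes MDH, a malate dehydrogenase of plastids, which read 7.01, 7.07, 7.17 and 7.3 at 4 °C, against 7.86, 7.79, 7.77 and 8.25 at 22 °C. The groups did not overlap, and MDH fell by 0.77, SE 0.12 (limma adjusted p = 0.000162). IDH-VI, an isocitrate dehydrogenase subunit, fell by 0.87, SE 0.17 (adjusted p = 0.00126). CYTC-2 and CYTC-1, both cytochrome c, were 1.31-fold and 1.24-fold lower (adjusted p = 0.0139 and 0.0324), calls lost in 2 and 5 of the 8 fits without 1 array. For CYTC-2 those were the fits without Col-0 replicate 1 at 4 °C (adjusted p = 0.0868) or at 22 °C. Of 45 genes on the list of fermentation and low oxygen only 2 were tested, and 1 was higher and 1 lower. PDC2, pyruvate decarboxylase of ethanol fermentation, read 9.91, 10.15, 10.01 and 10.3 at 4 °C, against 9.16, 9.24, 9.16 and 9.19 at 22 °C, and rose by 0.9 ± 0.09 (adjusted p = 3.9e-06). AT3G10040, known as HRA1, an attenuator of the hypoxia response, read 5.64, 5.7, 5.18 and 5.69 at 4 °C, against 6.45, 6.84, 6.54 and 6.71 at 22 °C, and fell by 1.08 (SE 0.14, adjusted p = 2.84e-05). Neither gene's groups overlapped.

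Of 3 genes on the list of seed storage and oil bodies, 1 was lower and 1 higher. PAP85, at 0.06, did not pass (limma adjusted p = 0.642). The lower gene codes for a protease, not for a storage or oil-body protein. CP1, a cysteine proteinase, read 5.06, 4.68, 5.37 and 6.01 at 4 °C, against 6.28, 6, 5.79 and 6.95 at 22 °C, and fell by 0.97, SE 0.22 (limma adjusted p = 0.00424). One Col-0 array at 4 °C overlapped the 22 °C arrays, and no left-out array ended the call. OLEO3, an oleosin of oil bodies, was 0.3 higher (adjusted p = 0.047) with overlapping arrays, and that call was lost in 6 of 8 fits without 1 array. SDP1, the lipase that starts oil breakdown, was 1.28-fold lower (adjusted p = 0.0177), and AIM1, an enzyme of peroxisomal fatty acid oxidation, 1.26-fold higher (adjusted p = 0.0202), lost in 4 and 3 of those fits. None of 9 late embryogenesis abundant and dehydrin genes was called, with a median of -0.04 and LTI30, a cold-induced dehydrin, at 0.24 (adjusted p = 0.0721). The lipocalin gene TIL, named as temperature-induced, read 11.79, 11.8, 11.94 and 11.92 at 4 °C, against 12.32, 12.3, 12.21 and 12.5 at 22 °C. All 4 arrays at 4 °C were lower, and TIL fell by 0.47, SE 0.08 (adjusted p = 0.000646).

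Protein folding, redox and turnover lists also held calls. Of those named here, Hop3, Hsp70-2 and GR were moderate as defined above, while AT5G48570, GR1, UBC27 and UBP22 were not. Of 10 heat shock and chaperone genes, 3 were lower and none higher, with a median of -0.25. AT5G48570, known as ROF2 or FKBP65, a co-chaperone of heat responses, read 7.35, 7.46, 6.76 and 7 at 4 °C, against 7.56, 7.89, 7.74 and 7.74 at 22 °C, and fell by 0.59, SE 0.13 (limma adjusted p = 0.00326). Its groups stood apart by a small gap. Hop3 and Hsp70-2 were lower by less stable calls, lost in 3 and 6 of 8 fits without 1 array. GR1, a glutathione reductase, read 7.23, 7.16, 7.1 and 7.35 at 4 °C, against 8.19, 8.01, 8.04 and 7.71 at 22 °C, and fell by 0.78, SE 0.12 (adjusted p = 0.000211). The other glutathione reductase, listed as GR, was 0.32 higher (adjusted p = 0.0363), and every fit without 1 array lost that call. Of 31 proteasome and ubiquitin genes, 2 were higher and 4 lower. They included UBC27, a ubiquitin-conjugating enzyme, which fell by 0.71 (SE 0.12, adjusted p = 0.000569), and UBP22, a ubiquitin-specific protease, which rose by 1.02 (SE 0.18, adjusted p = 0.00048).

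Of 11 autophagy genes, ATG8B fell beside ATG8E, by 0.83 (SE 0.16, limma adjusted p = 0.00111), while ATG8H was 0.36 higher (adjusted p = 0.0157), a call lost in 4 of 8 fits without 1 array. ATG8D, at 0.29 higher, did not pass (adjusted p = 0.0939). RNA processing genes were called downward only, 3 of 10. LSM6A, an RNA-binding protein of the LSM ring, read 8.22, 8.11, 7.82 and 7.95 at 4 °C, against 8.48, 8.59, 8.54 and 8.74 at 22 °C, and fell by 0.56, SE 0.11 (adjusted p = 0.00158). No array overlapped. Its paralog LSM6B fell by 0.49 (adjusted p = 0.0114, but 0.0581 without 35S-GSH1 replicate 2 at 4 °C), and U2AF35B, a splice-site factor, by 0.41 (adjusted p = 0.0112, but 0.0646 without 35S-GSH1 replicate 1 at 4 °C). The translation initiation helicase EIF4A-2 fell by 0.52 (SE 0.11, adjusted p = 0.00189).

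On the list of sugar and nitrogen transport, 3 of 10 genes were called, all upward, with a list median of 0.52. The calls were AT1G68570, AT3G25260 and GTR1. No SWEET sugar transporter passed, with SWEET6 at 0.28 (limma adjusted p = 0.0651) and SWEET11 at -1.05 (adjusted p = 0.172). AT1G68570, known as NPF3.1, of the nitrate and peptide transporter family, read 8.18, 8.55, 8.51 and 8.59 at 4 °C, against 7.49, 7.92, 7.71 and 7.48 at 22 °C, and rose by 0.81 ± 0.13 (limma adjusted p = 0.000191). AT3G25260, NPF4.1 of the same family, rose by 0.82 ± 0.17 (adjusted p = 0.00172). Both had every array at 4 °C above those at 22 °C, and GTR1, a glucosinolate transporter, was 0.48 higher by a call lost in 7 of 8 fits without 1 array. No call was made among 11 cytochromes P450, 9 basic helix-loop-helix factors, 4 gibberellin genes or 9 IQD genes. Genes for abscisic acid, MYB factors and aquaporins had no named probe set that passed the filter.

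**Figure D5:**
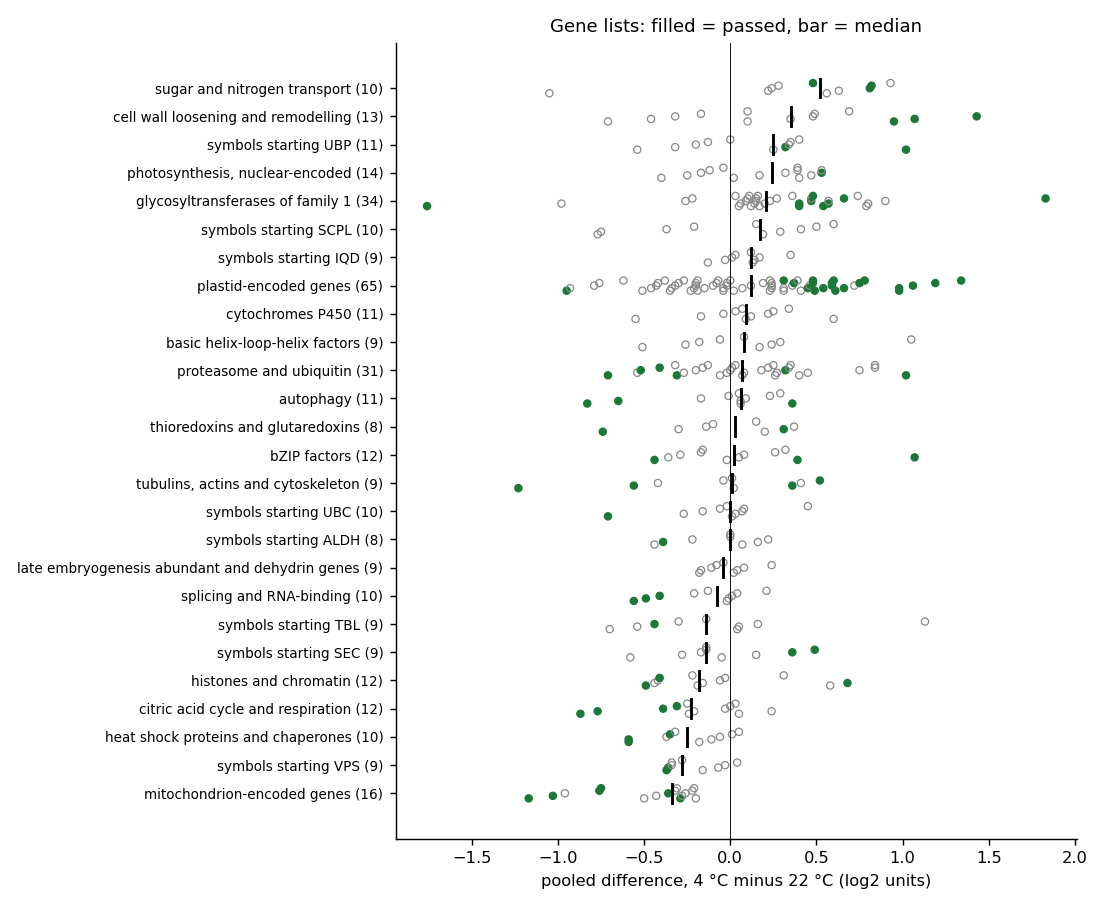
Pooled difference between 4 °C and 22 °C in log2 units (horizontal axis) for each tested gene of the lists with at least 8 tested (vertical axis, number tested in brackets). Filled points passed the test, open points did not, and the bar is the list's median. Medians run from 0.52 for sugar and nitrogen transport to -0.34 for mitochondrion-encoded genes.

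Calls among the organelles' own genes were mostly upward for the plastid and downward for the mitochondrion. Of 65 plastid-encoded genes, 19 were higher and 1, rps16, lower at 4 °C, with a median of 0.12, and 6 were called in each genotype alone. psaB, a core protein of photosystem I, read 8.57, 8.57, 9.6 and 8.65 at 4 °C, against 7.17, 6.99, 8.14 and 7.73 at 22 °C, and rose by 1.34 ± 0.14 (limma adjusted p = 3.48e-06). ndhI, of the plastid NADH dehydrogenase-like complex, read 8.32, 8.66, 8.87 and 8.62 at 4 °C, against 7.62, 7.16, 7.94 and 7.84 at 22 °C, and rose by 0.98 ± 0.13 (adjusted p = 3.74e-05). Both were without overlap. rpoC1, of the plastid RNA polymerase, rose by 0.98 ± 0.15 (adjusted p = 0.000158), and matK, a maturase, by 1.19 ± 0.16 with overlapping arrays (adjusted p = 4.43e-05). Replicate 1 of Col-0 at 4 °C was the highest array for psaB, ndhI, matK and rpoC1. The count of 19 became 12 without that array, 12 without 35S-GSH1 replicate 2 at 4 °C, and 11 without the replicate term.

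Of 16 mitochondrion-encoded genes, 6 were lower and none higher, with a median of -0.34, and none was called in a genotype alone. nad4, of respiratory complex I, read 8.73, 7.35, 9.7 and 7.99 at 4 °C, against 9.61, 8.8, 10.3 and 9.72 at 22 °C. The groups overlapped, and replicate 1 exceeded replicate 2 in every group. Within each pair of equal genotype and replicate number the 4 °C array was the lower, and nad4 fell by 1.17, SE 0.14 (limma adjusted p = 2.27e-05, but 0.02 without the replicate term). ccb206, of cytochrome c maturation, read 6.48, 5.42, 6.58 and 5.12 at 4 °C, against 7.01, 6.46, 7.36 and 6.9 at 22 °C, and fell by 1.03, SE 0.17 (adjusted p = 0.000289). Again replicate 1 was the higher in every group. cox2, of cytochrome c oxidase, and ccb382 fell by 0.76 (adjusted p = 0.0058) and by 0.75 (adjusted p = 0.00381). Without the replicate term 4 of the 16 were called. The Arabidopsis nucleus holds a large copy of mitochondrial DNA, so these probe sets may not separate organelle from nuclear transcripts. The part that replicate number plays in the organelle counts was not tested beyond these fits.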

How the data were processed

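The deposited values are probe-set intensities on a linear scale, 1 per array; GCOS is named per the submitters' processing notes, with version, algorithm and scaling not given in the sources used here. Of its 22746 probe sets, 13513 were paired with 1 gene, 503 with several and 8730 with none, and 13436 matched RefSeq (TAIR10.1). Values were quantile normalized and analysed as log2(intensity + 1), with a filter at the 40th percentile of means (6.26 on the intensity scale), in limma 3.58.1 under R 4.3.3 with an intensity trend and two-sided tests. The pooled fit held temperature, genotype and replicate number, and a fit with 1 coefficient per group gave single genotypes and the interaction. Folds understate changes of dim probe sets. The array number limits precision.

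Named genes were the 12 moderate genes each way with the smallest p and no overlap, up to 8 of at least 2-fold each way, up to 4 per list, and 3 probe sets each way of any annotation. Members and lists were chosen with earlier results of these data known. After the data were seen, 35 list matches of other families were removed, and the symbol-stem and organelle lists and the fit with the replicate term on both sides were added. Alternatives were pseudocount, scaling, filter, trend, priors, replicate term, threshold and leaving out each array. The fits were tested on simulated data. One gene family is not reported here.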

Additional observations from a re-analysis of the deposited data

Results flagged for a closer look

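In 4 of 84 groups of 4 arrays examined, over 42 named probe sets, 1 array stood apart from the other 3 by Dixon's criterion for 4 samples, and chance flags about 1 in 20 groups. For COR27 at 4 °C, Col-0 replicate 1 read 8.06, against 8.34 to 8.39 on the others. For psaB at 4 °C, the same array read 9.6, against 8.57 to 8.65. For HTB4 at 4 °C, 35S-GSH1 replicate 1 read 8.45, against 8.66 to 8.69. For LHCB4.1 at 22 °C, Col-0 replicate 1 read 7.82, against 8.06 to 8.08. None of these 4 genes lost its call when any 1 array was left out.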

How the results depend on the processing

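The pooled count of 3012 became 1682 without the intensity trend and 1734 at a threshold of 0.01, and lay between 2285 and 2810 when 1 array was left out. All 1714 moderate changes kept their sign under every alternative that tested them, but 569 of them stayed called without the trend. The moderate count was 1111 with no replicate block, 968 with the block in both fits, an alternative added after the data were seen, and 1311 to 1696 without 1 array. For 35S-GSH1 alone the 762 calls became 117 without the trend and 1386 with the replicate block, and 257 to 792 without 1 array. For Col-0 alone the 953 became 153, 1692 and 427 to 852 in the same settings. The interaction gave 0 throughout. The genotype term gave 0 without the trend and 7 to 15 without 1 array, and the replicate term 0 and 7 to 70. Without the trend, 7 plastid genes were higher and 2 mitochondrial ones lower, and at 0.01 11 plastid genes; glycosyltransferases fell to 5 and 4 in these settings. On the deposited scale 69.5% of moderate changes were higher. Each gene chosen by rank or from a list was counted once per setting. By that count 1659 results kept their side of the threshold, 254 lost it, 6 gained it and 0 reversed. Some of the list members counted here and below, such as SAPX and EIN3, are not described above. The 42 genes named by rank lost no call to any left-out array, whereas 33 of 65 list members did. The 42 were chosen for the smallest adjusted p-values, most of them also for no overlap, so their stability follows largely from that choice. The 65 include ATG8D, HTB2 and LTI30, which had no call to lose. HTB4, PRA8, RL2, UGT85A5 and Y14 lost theirs without the trend. Correlations between groups of the replicate 2 minus replicate 1 difference were low but all positive, 0.05 to 0.14, and the replicate term called 99 probe sets in the main fit. These values do not settle whether the numbers pair samples. Why counts moved was not tested. Dim probe sets had only a few called changes, and no detection calls were used.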
